A study of Mus musculus with 18 samples.

Results

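Dbp, Tef, Hlf, Nfil3, Bhlhe40 and Bhlhe41 encode transcription factors that carry the timing of the circadian clock to other genes, and their signals were followed in mouse liver on Affymetrix Mouse430_2 arrays. Every probe set annotated to 1 of the 6 gene symbols was taken, which gave 11 of the 45101 probe sets on the array. Of these, 9 passed a filter on low values and were tested, at least 1 for each gene. The exceptions were Tef 1450184_s_at and Bhlhe41 1457096_at.

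The clock is a feedback loop in which CLOCK and BMAL1, the product of Arntl, activate genes through E-boxes and are held back by the PER and CRY proteins those genes encode. Dbp, Tef and Hlf are the PAR bZIP activators, which bind D-boxes. Nfil3 is a repressor that binds the same sites, and Bhlhe40 and Bhlhe41 (Dec1 and Dec2) are repressors that bind E-boxes. In liver the transcripts of several of these factors cycle over the day, Dbp with a very large amplitude, and the D-box factors act on genes of detoxification and bile acid synthesis. The labels used here do not give the hour at which any liver was collected, so the time of day and the group cannot be told apart.

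The 18 arrays formed 6 groups of 3 from male mice. Mice labelled Hmgn1+/+ (wild type) and Hmgn1-/- (knockout) came from crosses of Hmgn1+/- parents, after which each homozygous genotype was bred on its own. Hmgn1 encodes a nucleosome-binding protein. In each genotype 1 group was not injected and was labelled 4 weeks. The other groups were injected at 4 weeks of age with saline, or with N-nitrosodiethylamine (DEN), a liver carcinogen, at 10 µg per g body weight, and were labelled 12 weeks. The titles do not say whether these weeks are an age, whereas the series text counts them from the injection. Comparisons with the 4-week groups therefore span age and injection at once, and those with saline also the array difference described below. The labels name 3 replicates but not 3 separate animals, so p-values measure only the spread between these samples.

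The targeted gene did not separate the labelled genotypes. Of 4 Hmgn1 probe sets, 3 were tested, and their differences between labelled knockout and wild type lay between -0.15 and 0.06 on the log2 scale over the 3 conditions, with adjusted p from 0.577 to 0.995. The signal of 1438940_x_at spanned 5039 to 7948 in the wild-type arrays and 4838 to 6894 in the labelled knockout arrays, and the remaining probe set, 1422496_at, stayed at 26.0 or below on every array. Where these probes lie relative to the deleted segment was not analysed here, so the signals leave the knockout labels unchecked. The term labelled knockout is used below, and each genotype direction rests on the labels alone. Separately, the 6 saline arrays differed as a set from the 12 without saline. Their highest signals were 16720 to 21752 against 46967 to 60173, the summed signal of 7 hepatocyte markers was 71300 to 91443 against 156935 to 180921, and a BioB control, which is added to the hybridization mix, read 27.0 to 41.2 against 261 to 485. This array difference and the saline treatment cannot be told apart, and each saline comparison below rests on them. Arrays of a group correlated at 0.964 to 0.986 over log2 values. The Gapdh 3′ to 5′ signal ratio was 1.13 to 2.19 at 4 weeks in wild type and 1.35 to 1.7 in the labelled knockout. With DEN it was 1.02 to 1.13 and 0.907 to 0.937, and with saline 1.19 to 1.33 and 1.21 to 1.41. Its part in the members' differences was not tested beyond leaving out the 4-week array of highest ratio in each genotype.

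Promoter windows are shown for the activators and the repressor with the largest changes, because these genes moved in opposite directions. RefSeq windows on GRCm38.p6 run from 250 bases before to 50 bases after a transcript start and were found for 5 of the 6 genes. They were searched on both strands for the E-box CACGTG, the D-box as TTATGTAA or TTACGTAA, and the ROR half-site AGGTCA, which ROR and REV-ERB receptors bind. Of 32851 windows, 7.15% held the E-box, 1.06% a D-box and 16.3% the half-site. Both Tef windows hold an E-box and the Nfil3 window a half-site on the opposite strand, TGACCT. The Dbp window holds none of the 3. No motif overlapped another, and matches are marked in capitals in the sequences, each written 5′ to 3′ on the gene's strand.
Tef, chr15:81802423-81802722, plus strand: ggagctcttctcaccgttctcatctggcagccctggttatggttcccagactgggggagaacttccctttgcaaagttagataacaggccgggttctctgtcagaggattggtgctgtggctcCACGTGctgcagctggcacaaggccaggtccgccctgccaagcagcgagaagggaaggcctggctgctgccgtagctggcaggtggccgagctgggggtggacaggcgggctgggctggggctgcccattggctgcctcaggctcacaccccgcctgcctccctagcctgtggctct
Tef, chr15:81811164-81811463, plus strand: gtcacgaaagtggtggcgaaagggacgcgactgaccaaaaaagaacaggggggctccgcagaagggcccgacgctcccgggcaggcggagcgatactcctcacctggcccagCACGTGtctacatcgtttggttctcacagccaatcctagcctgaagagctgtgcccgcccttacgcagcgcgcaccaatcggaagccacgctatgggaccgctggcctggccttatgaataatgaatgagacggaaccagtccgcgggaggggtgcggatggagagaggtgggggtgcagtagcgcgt
Nfil3, chr13:52980990-52981289, minus strand: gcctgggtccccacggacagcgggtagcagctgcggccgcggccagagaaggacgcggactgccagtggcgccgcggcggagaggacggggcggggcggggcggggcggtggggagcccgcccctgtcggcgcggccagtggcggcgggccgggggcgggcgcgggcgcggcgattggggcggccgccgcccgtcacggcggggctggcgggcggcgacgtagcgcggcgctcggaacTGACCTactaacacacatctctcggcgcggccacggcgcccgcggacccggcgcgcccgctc
Dbp, chr7:45704997-45705296, plus strand: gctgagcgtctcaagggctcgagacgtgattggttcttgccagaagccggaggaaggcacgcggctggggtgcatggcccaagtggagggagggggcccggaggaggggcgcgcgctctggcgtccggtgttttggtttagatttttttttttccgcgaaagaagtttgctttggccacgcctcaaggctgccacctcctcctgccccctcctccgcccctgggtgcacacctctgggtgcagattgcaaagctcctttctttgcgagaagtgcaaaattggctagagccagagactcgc
A match is only a run of letters, and factor binding was not measured. Sequence outside these windows, the rest of each gene included, was not searched. The Nfil3 window, which ends at 52981289, lies within the annotated gene, which reaches 52982878. The Bhlhe41 window also holds an E-box and the Hlf window none of the 3.

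**Figure D1:**
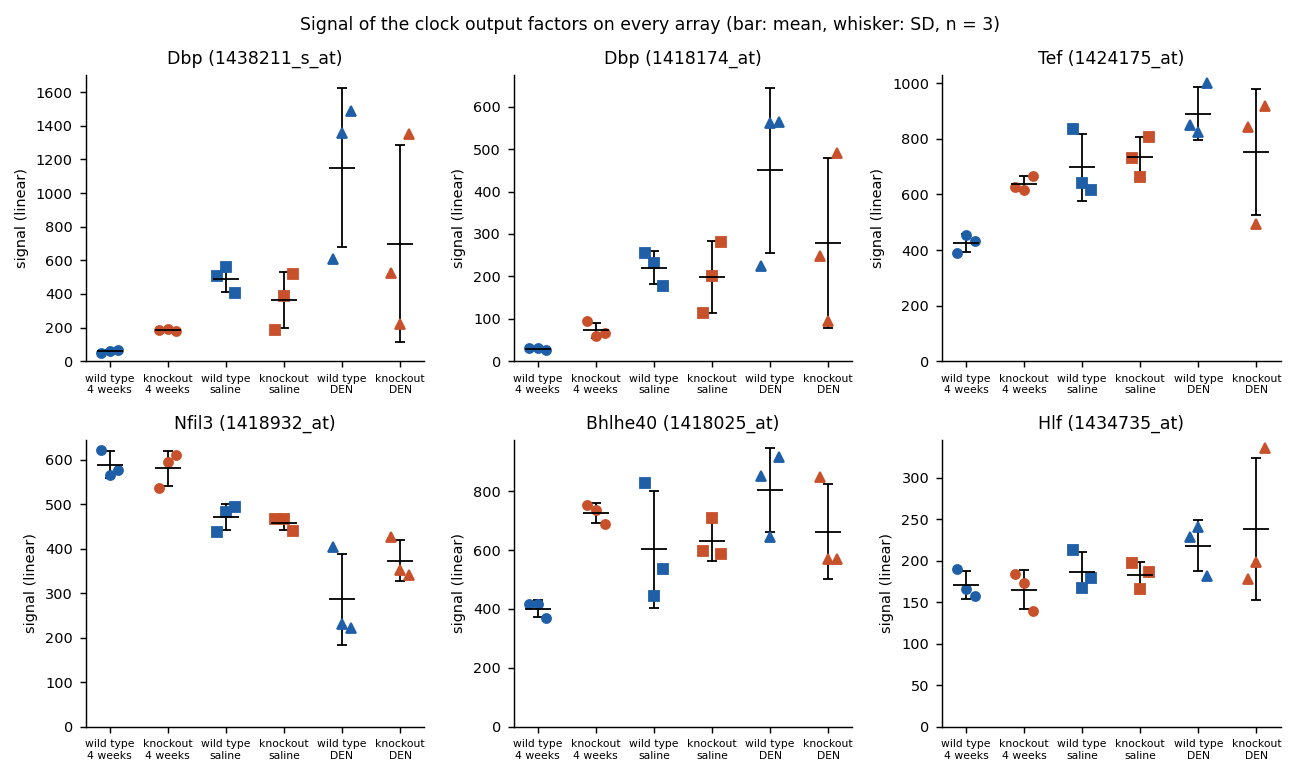
Linear signal (y axis) of 6 probe sets on each of the 18 arrays, by group (x axis); points are arrays, bars are means and whiskers are SD (n = 3), and genotypes are as labelled. Dbp, Tef and Bhlhe40 are lowest in the 4-week wild-type arrays, and Nfil3 is highest in the 4-week arrays.

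Dbp, the PAR bZIP factor with the widest range here (gene at chromosome 7, 45705100 to 45710203), was low in the 4-week wild-type arrays and far higher in the wild-type saline and DEN arrays. On 1438211_s_at the 4-week wild-type arrays read 46.9, 63.6 and 65.4 and the 4-week labelled knockout arrays 187, 189 and 179. The saline arrays read 509, 559 and 403 in wild type and 187, 386 and 520 in the labelled knockout. The DEN arrays read 610, 1356 and 1489 in wild type and 527, 219 and 1351 in the labelled knockout. The 4-week wild-type arrays lay below every other array, while every later step in the order of group means overlapped its neighbour. How many of all probe sets placed this group apart in this way was not counted, here or for other members below. The DEN groups were the most scattered, with means of 1152 ± 474 and 699 ± 585 (SD, n = 3).

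In wild type Dbp rose by 3.88 on the log2 scale from 4 weeks to DEN (SE 0.42, 14.7-fold, limma adjusted p = 4.83e-05). It also rose by 2.76 from 4 weeks to saline (SE 0.42, 6.77-fold, adjusted p = 0.000145). In the labelled knockout it rose by 1.48 from 4 weeks to DEN (SE 0.42, 2.78-fold, adjusted p = 0.0336), a call that was lost in 5 of the 6 fits without 1 array of these groups. Without labelled knockout DEN replicate 3 that difference was 0.83 (adjusted p = 0.172). Between the same labelled knockout groups the summed signal of 7 Kupffer cell and macrophage markers went from 2301 to 2530 at 4 weeks to 2952 to 4240 with DEN, and 6 of the 7 rose. In wild type it was 3507 to 3670 and 3081 to 3865. Their part in this and the other labelled knockout differences between 4 weeks and DEN was not tested. On 1438211_s_at the labelled knockout step from 4 weeks to saline, 0.81, did not pass the test (adjusted p = 0.256).

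The second Dbp probe set, 1418174_at, had lower signals and gave the same directions in these comparisons. The 4-week arrays read 30.6, 30.3 and 26.2 in wild type and 93.7, 60.4 and 66.1 in the labelled knockout. The saline arrays read 255, 231 and 178 in wild type and 113, 201 and 282 in the labelled knockout. The DEN arrays read 225, 562 and 563 in wild type and 248, 94.8 and 492 in the labelled knockout. It rose by 3.26 from 4 weeks to DEN in wild type (adjusted p = 0.000115), by 2.39 from 4 weeks to saline in wild type (adjusted p = 0.00032), and by 1.48 from 4 weeks to DEN in the labelled knockout (adjusted p = 0.0227). The last call was lost in 4 of the 6 fits without 1 array of these groups: without 4-week replicate 2 or 3, or DEN replicate 1 or 3, the value being 0.95 without DEN replicate 3 (adjusted p = 0.118). The labelled knockout step from 4 weeks to saline on 1418174_at was 1.20 (95% interval 0.39 to 2.01). It was short of the threshold (adjusted p = 0.055) and was called in 4 of 18 alternative fits. A log2(signal + 16) scale understates the change of low signals.

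Tef, a second PAR bZIP activator (chromosome 15, 81802673 to 81826863), was well expressed and varied less. On 1424175_at the 4-week arrays read 389, 453 and 434 in wild type and 628, 616 and 668 in the labelled knockout. The saline arrays read 835, 642 and 616 in wild type and 731, 664 and 808 in the labelled knockout. The DEN arrays read 849, 824 and 1001 in wild type and 843, 494 and 919 in the labelled knockout. Only the 4-week wild-type group was separated from the next group in the order of means, as on Dbp 1438211_s_at. In wild type Tef rose by 1.04 from 4 weeks to DEN (2.05-fold, adjusted p = 0.001) and by 0.68 from 4 weeks to saline (1.60-fold, adjusted p = 0.00929). The second call was lost without wild-type saline replicate 1 (0.55, adjusted p = 0.0797). In the labelled knockout the step from 4 weeks to DEN was 0.19 (adjusted p = 0.535), and without DEN replicate 2, the array of 494, it was 0.46 (adjusted p = 0.0465). The weaker probe set 1438033_at had group means of 32.9 to 64.2 and passed no test. The untested 1450184_s_at had its highest group mean, 35.1, in the wild-type DEN group.

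Hlf, the third PAR bZIP activator (chromosome 11, 90336535 to 90390917), was measurable on 2 probe sets and passed the test in no comparison. On 1434735_at group means ran from 165 in the 4-week labelled knockout to 238 ± 85.8 (SD, n = 3) in the labelled knockout DEN group, and neighbouring groups overlapped throughout. Its largest difference was 0.44 from 4 weeks to DEN in the labelled knockout (SE 0.17, adjusted p = 0.119), where 1434736_at gave -0.15. The 2 probe sets thus differed in sign, and labelled knockout DEN replicate 3, at 336 and 248, was the highest array on both.

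Nfil3, the repressor of D-box genes (chromosome 13, 52967209 to 52982878), ran the other way. The 4-week arrays read 623, 566 and 578 in wild type and 536, 595 and 611 in the labelled knockout. The saline arrays read 438, 482 and 493 in wild type and 466, 467 and 441 in the labelled knockout. The DEN arrays read 404, 231 and 222 in wild type and 426, 352 and 341 in the labelled knockout. The 4-week, saline and DEN arrays formed 3 ranges that did not overlap, whereas the genotypes overlapped in each. The gaps were narrow, 426 against 438 and 493 against 536. How many of all probe sets separate in this way was not counted, and the saline arrays differ as a set. In wild type Nfil3 fell by 1.05 from 4 weeks to DEN (SE 0.15, adjusted p = 0.000476) and by 0.74 from saline to DEN (SE 0.15, adjusted p = 0.00338). In the labelled knockout it fell by 0.62 from 4 weeks to DEN (adjusted p = 0.0145), and this call was lost without 4-week replicate 3 (adjusted p = 0.0598) or DEN replicate 2 (adjusted p = 0.0594). The labelled knockout step from saline to DEN was -0.29 (adjusted p = 0.211). Of the 9 member probe sets, only this 1 was called between DEN and saline in wild type, where 6.54% of all tested probe sets were called, and it kept its call with quantile normalization (adjusted p = 0.0141). At an unadjusted limma p under 0.05 there were 5 of the 9, against 5274 of all 27022. The others were higher with DEN: Dbp by 1.12 and 0.88 on its 2 probe sets, Bhlhe40 by 0.44 and Tef by 0.35.

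Bhlhe40, the E-box repressor also called Dec1 (chromosome 6, 108660629 to 108666925), was the only member called between the labelled genotypes. The 4-week arrays read 417, 417 and 368 in wild type and 752, 738 and 688 in the labelled knockout. The saline arrays read 827, 445 and 535 in wild type and 596, 710 and 587 in the labelled knockout. The DEN arrays read 851, 643 and 916 in wild type and 848, 570 and 570 in the labelled knockout. The 4-week wild-type arrays were the lowest of all, and the other 5 groups overlapped along the order of their means. Wild-type Bhlhe40 rose by 0.96 from 4 weeks to DEN (1.95-fold, adjusted p = 0.00387), and the labelled knockout gave -0.15 (adjusted p = 0.663). Its paralog Bhlhe41 (Dec2, chromosome 6, 145858243 to 145865420) was near the floor, with group means of 11.4 to 28.6 on 1421099_at and at most 2.36 on any array of 1457096_at. Its largest difference, 0.73 from 4 weeks to saline in wild type, did not pass the test (adjusted p = 0.223).

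**Figure D2:**
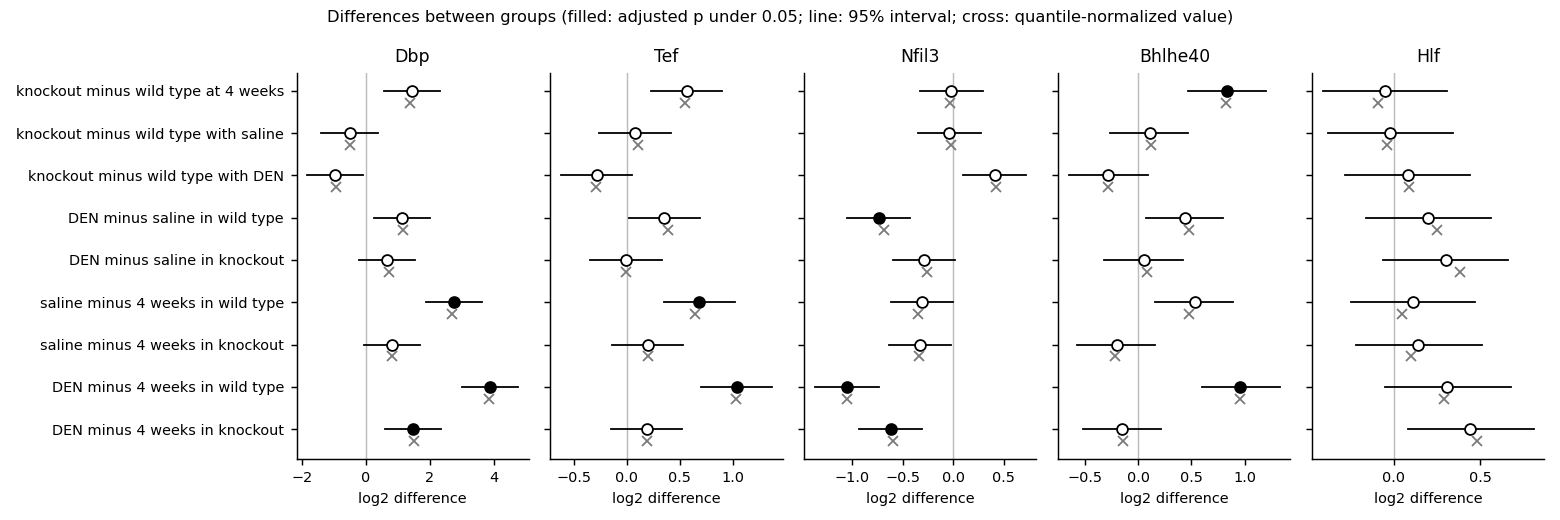
Log2 differences (x axis, scaled per panel) of 5 members in 9 comparisons (y axis), with 95% intervals; filled circles have adjusted p under 0.05, crosses are quantile-normalized values, and genotypes are as labelled. In wild type Dbp reaches 3.88 and Nfil3 -1.05 from 4 weeks to DEN.

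Between the labelled genotypes at 4 weeks, 1 of 9 member probe sets was called against 2.26% of all 27022 tested. Bhlhe40 was higher in the labelled knockout by 0.83 (SE 0.18, adjusted p = 0.0133), a call that was lost in 3 of the 6 fits without 1 array of these groups: without wild-type replicate 3 (adjusted p = 0.0708), labelled knockout replicate 1 (adjusted p = 0.0597) or labelled knockout replicate 2 (adjusted p = 0.0511). Dbp differed by 1.44 on 1438211_s_at (95% interval 0.56 to 2.31, adjusted p = 0.0811) and by 0.97 on 1418174_at (adjusted p = 0.227). Tef differed by 0.57 (adjusted p = 0.0718). None of these passed the threshold, although the 3 arrays of each group did not overlap. When the 6 arrays of 4 weeks were fitted alone, Dbp 1438211_s_at had an SE of 0.15 and adjusted p = 0.000376, and 4 member probe sets were called. The share of all probe sets called in that fit is not given here, and the 2.26% does not apply to it. How many of all probe sets had no overlap between these groups was not counted. Nfil3 differed by -0.02 (adjusted p = 0.971). In the same arrays the summed signal of the 7 Kupffer cell and macrophage markers was 3507 to 3670 in wild type and 2301 to 2530 in the labelled knockout, and 3 of the 7 fell. The sum of 5 stellate and matrix markers was 3395 to 3756 against 2393 to 2535, and 1 of the 5 fell. The 1 tested pancreas marker of 4 was 352 to 457 against 684 to 753 and was called higher in the labelled knockout. The sum of 2 tested cholangiocyte markers of 4 was 66.7 to 84.3 against 92.9 to 110, and neither marker passed the test. The part of these markers in the members' values was not tested. In bulk liver, fewer cells of a type and less RNA per cell cannot be told apart.

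No member probe set was called by limma between the labelled genotypes with saline or with DEN, where 0.0111% and 0.0074% of all probe sets were called. At an unadjusted limma p under 0.05 there were 0 members with saline, against 1426 of all 27022, and 2 with DEN, against 2424. With DEN, Dbp differed by -0.96 on 1438211_s_at (95% interval -1.84 to -0.09, adjusted p = 0.518) and by -0.81 on 1418174_at (adjusted p = 0.557). Nfil3 differed by 0.41 (adjusted p = 0.437). Without wild-type DEN replicate 1, the array of 404, Nfil3 differed by 0.68 (adjusted p = 0.0331).

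The genotype difference itself was compared between conditions. From 4 weeks to DEN, that of Bhlhe40 moved by -1.11 (SE 0.25, adjusted p = 0.0381), the only 1 of 9 member probe sets called, against 0.762% of all. The call was lost in 9 of 12 fits without 1 array of these groups. The genotype difference of Dbp moved by -2.40 on 1438211_s_at (95% interval -3.64 to -1.16, adjusted p = 0.0595) and by -1.78 on 1418174_at (adjusted p = 0.14). That of Tef moved by -0.85 (adjusted p = 0.0847), and all of these were short of the threshold. For Dbp 1438211_s_at the value was -3.05 without labelled knockout DEN replicate 3 (adjusted p = 0.00468) and -2.80 without wild-type DEN replicate 1 (adjusted p = 0.0263). Moving from saline to DEN, no member was called by limma, and 0.0% of all probe sets were called. An unadjusted limma p under 0.05 was found for 1 member probe set, against 2170 of all 27022.

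Counts of called members against the 4-week groups are given for each genotype, and the difference between these counts was not tested. With DEN, 4 member probe sets rose and 1 fell in wild type (4.4% of all called), and 2 rose and 1 fell in the labelled knockout (8.24% of all called). With saline, 3 rose in wild type (8.26% of all called) and 0 were called by limma in the labelled knockout (9.94% of all called). In that labelled knockout comparison 2 of the 9 had an unadjusted limma p under 0.05, against 6335 of all 27022. Between saline and DEN in the labelled knockout 0 were called (15.1% of all called). There 0 of the 9 had an unadjusted limma p under 0.05, against 7666 of all 27022. The DEN and saline comparisons of a genotype share its 4-week arrays.

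The core clock genes were read on the same arrays, 14 of 16 being measured. In wild type 1 rose and 4 fell from 4 weeks to DEN, with a median of 0.08 against 0.04 over all genes (4.71% of genes called). Npas2, a CLOCK paralog, fell by 1.58 (adjusted p = 0.00478). Its wild-type signals with DEN were near the floor, at 5.36, 19.9 and 19.9 against 49.1, 91.8 and 89.6 at 4 weeks. Arntl fell by 0.75 (adjusted p = 0.0408). Rora, a nuclear receptor that activates Arntl, fell by 0.51 (adjusted p = 0.0128). Nr1d2, which encodes the repressor REV-ERB beta, rose by 0.63 (adjusted p = 0.00225). In the labelled knockout 1 rose and 7 fell (8.79% of genes called), with a median of -0.46, the largest being Npas2 at -0.97, Arntl at -0.87, Per1 at -0.82 and Cry1 at -0.63. The 1 that rose was Nr1d2, by 0.37 (adjusted p = 0.0403, and 0.0606 with quantile normalization). At 4 weeks 2 of 14 were higher in the labelled knockout (3.08% of genes called), Cry1 by 0.66 and Clock by 0.59. Cry1 lost its call with quantile normalization (adjusted p = 0.0605).

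**Figure D3:**
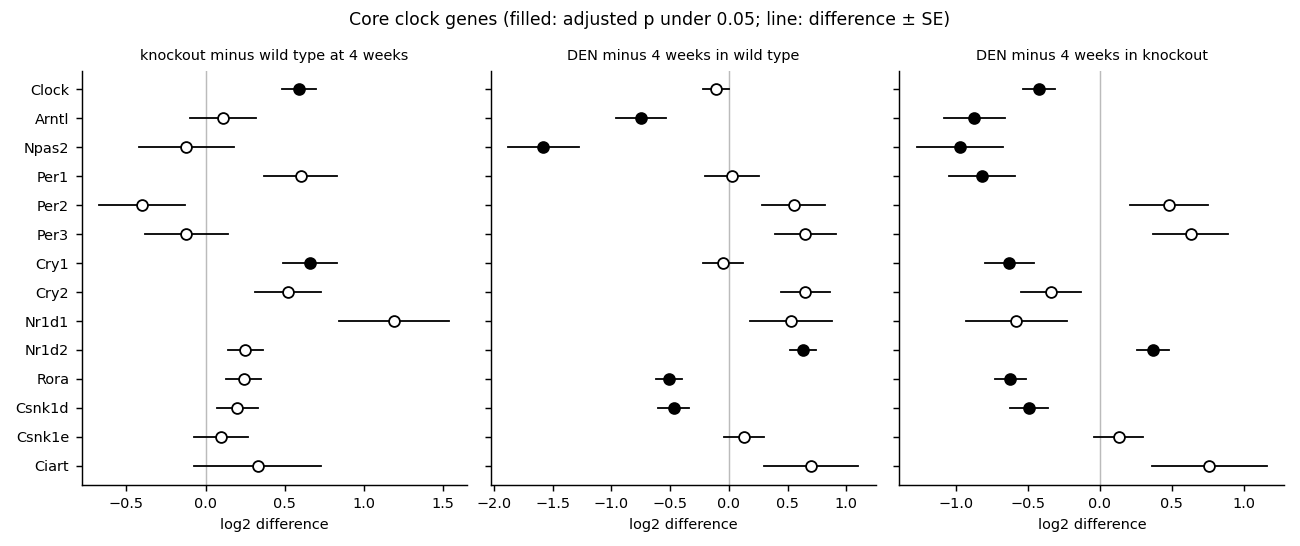
Log2 differences with SE (x axis, scaled per panel) of 14 core clock genes (y axis) in 3 comparisons; filled circles have adjusted p under 0.05 and genotypes are as labelled. Npas2 and Arntl lie left of 0 and Nr1d2 right of 0 in both comparisons of DEN with 4 weeks.

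Genes known as D-box targets were measured for 11 of 14. In wild type 1 rose from 4 weeks to DEN and 1 fell (4.71% of all genes called), and in the labelled knockout 2 rose and 1 fell (8.79% of all genes called). Alas1, the first enzyme of haem synthesis, rose in both, by 0.88 and 1.36. Cyp7a1, whose enzyme sets the pace of bile acid production, read 1390, 1082 and 1283 at 4 weeks in wild type and 228, 188 and 202 in the labelled knockout. With DEN it read 718, 286 and 576 in wild type and 749, 1103 and 557 in the labelled knockout. It fell by 1.31 in wild type (adjusted p = 0.00318) and rose by 1.83 in the labelled knockout (adjusted p = 0.000157), so unlike Dbp it went opposite ways from 4 weeks to DEN. Of 13 measured further clock-controlled genes, 1 rose and 1 fell in wild type, Usp2 by 1.29 and Lonrf3 by -0.96, and 2 rose and 1 fell in the labelled knockout, against the same 4.71% and 8.79% of all genes.

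Some genes followed the members closely from array to array. Over 18 arrays and 12890 genes, the gene most like Dbp was Nr1d2 (Pearson r = 0.955), which kept r = 0.92 after group means were removed. Foxq1 came next, with r = 0.926. For Tef the closest was Foxq1 (r = 0.906), for Nfil3 Irf2bp2 (r = 0.934), for Bhlhe40 Usp2 (r = 0.881) and for Hlf Gpsm3 (r = 0.795). Among the members Dbp and Tef had r = 0.895, Dbp and Nfil3 -0.815, and Dbp and Bhlhe40 0.576. After group means were removed these were 0.696, -0.472 and -0.0487. These are descriptions over arrays that share a group and unknown collection times, and the saline arrays differ as a set.

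Within the DEN groups single arrays moved together for some members and not for others. In the labelled knockout DEN group, replicate 2 was the lowest for Dbp, Tef and the core clock gene Nr1d2 and replicate 3 the highest, with Nr1d2 at 1524 and 2226. Replicate 1 was the highest there for Bhlhe40 (848, 570 and 570) and Nfil3 (426, 352 and 341), and the lowest for Hlf 1434735_at (178, 199 and 336). In the wild-type DEN group, replicate 1 was the lowest for Dbp, at 610, and the highest for Nfil3, at 404. It was not the lowest for Tef (849, 824 and 1001), Bhlhe40 (851, 643 and 916) or Hlf 1434735_at (229, 241 and 182).

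**Figure D4:**
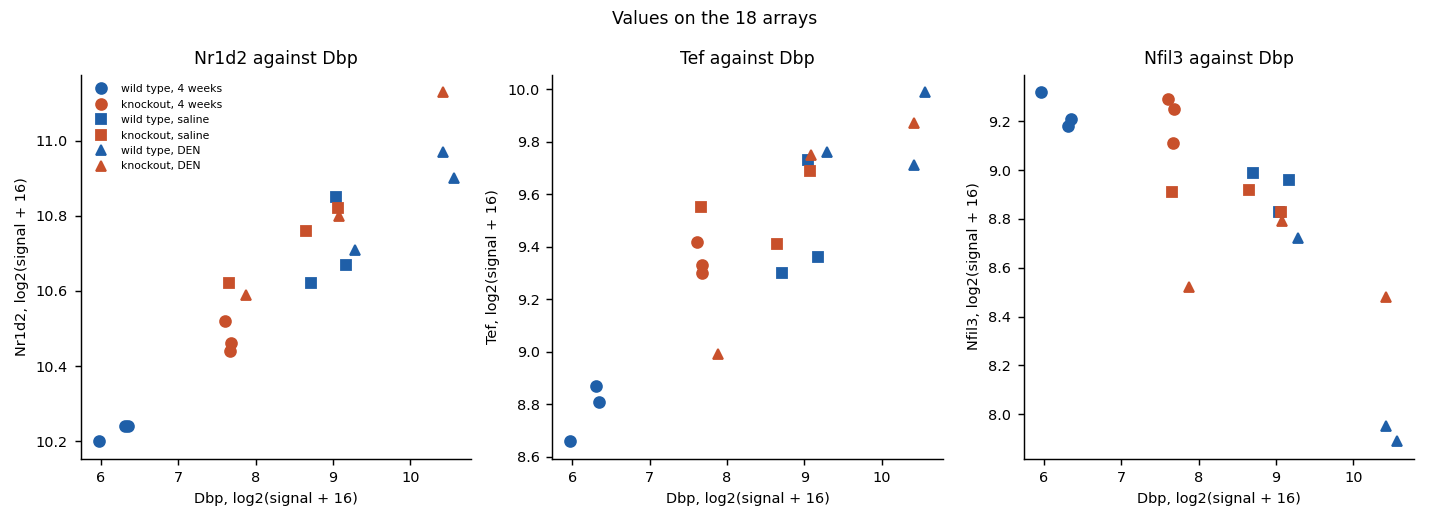
Nr1d2, Tef and Nfil3 (y axes) against Dbp (x axis), all as log2(signal + 16), on the 18 arrays, marked by condition and labelled genotype. Nr1d2 and Tef are higher and Nfil3 lower where Dbp is higher, with r of 0.955, 0.895 and -0.815 over all arrays and 0.92, 0.696 and -0.472 after group means were removed.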

How the data were processed

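The authors deposited 1 table of linear intensity values for 18 arrays, made with MAS5 per the submitters' processing notes, and the version is not given in the sources used here. From it log2(intensity + 16) was computed, and the 27022 of 45037 probe sets other than controls with a mean no lower than the 40th percentile entered the test. Of those 45037 probe sets, 34945 had 1 gene symbol, 932 several and 9160 none in the platform annotation. A gene is represented by its tested probe set of highest mean. With limma 3.58.1 in R 4.3.3, 1 coefficient per group was fitted to all 18 arrays (12 residual degrees of freedom, empirical Bayes with an intensity trend), and two-sided p-values were adjusted by Benjamini-Hochberg over all tested probe sets at a threshold of 0.05. The code was tested on simulated data. The number of arrays, 3 per group, limits the precision.

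The members and gene lists were chosen with earlier results of these data known. All members are named, and of each list up to 4 called genes of largest difference in the comparisons described. For likeness, the 3 genes of highest correlation were taken. Alternatives covered normalization, the added constant, the filter, the trend, array weights, the arrays fitted and a replicate block. The labels do not say that a replicate number marks a shared litter or day, so the main fit held no replicate block.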

Additional observations from a re-analysis of the deposited data

Results flagged for a closer look

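The genotype difference of Bhlhe40 (1418025_at) with DEN minus that at 4 weeks was -1.11 (adjusted p = 0.0381), because the labelled knockout was higher by 0.83 at 4 weeks and differed by -0.28 with DEN. The difference between the conditions was tested with limma. The call was lost in 14 of 25 alternative fits, with adjusted p from 0.0148 to 0.128 and values from -1.30 to -1.01.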

How the results depend on the processing

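Of 57 followed values for the members, 14 were called. Of these, 8 kept direction and call in every alternative run, and 0 changed sign. Counts of called member probe sets moved as follows. The cause was not tested, and the shares of all probe sets called in these alternatives are not given. Between the labelled genotypes at 4 weeks the count of 1 became 0 without the intensity trend, 3 with array weights, 4 with only the groups compared, 0 without both 4-week arrays of highest Gapdh ratio (an alternative chosen after seeing the data), and 0 to 3 without 1 array. With DEN it was 0 to 1 without 1 array. From saline to DEN in wild type the count of 1 became 2 with only the groups compared and 1 to 2 without 1 array, and in the labelled knockout 0 to 1. From 4 weeks to saline the wild-type count of 3 became 5 with array weights. The labelled knockout count of 0 became 1 at the 60th percentile filter, 1 with array weights, 2 with only the groups compared and 0 to 2 without 1 array. From 4 weeks to DEN in the labelled knockout the count of 3 became 1 without the trend and 0 to 3 without 1 array. For the genotype difference with DEN minus that at 4 weeks, the count of 1 became 0 with medians centred, without a filter, without the trend, with array weights and without both Gapdh arrays, 2 with the replicate block, and 0 to 3 without 1 array.

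The block is an alternative because the labels do not say that a replicate number marks a shared litter or day. Over 45 same-numbered pairs, deviations from group means correlated at -0.0978 to 0.116, and over 90 other pairs at -0.157 to 0.214. Above 0.1 there were 2 and 1 pairs. These values cannot show whether the arrays were paired. With the block the genotype difference of Dbp 1438211_s_at moved by -2.40 from 4 weeks to DEN (adjusted p = 0.0463). Wild-type Bhlhe40 moved by 0.53 from 4 weeks to saline (adjusted p = 0.0479).

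The 8 values that changed sign were not called. Dbp 1438211_s_at in the genotype difference with DEN minus saline was 0.17 without labelled knockout DEN replicate 2 (-1.10 to 0.17 without 1 array). Dbp 1418174_at between genotypes with saline was 0.11 without labelled knockout saline replicate 1 (-0.49 to 0.11), and from saline to DEN in the labelled knockout -0.05 without that array and -0.24 without DEN replicate 3 (-0.24 to 0.85). Tef between genotypes with saline was -0.05 with medians centred and -0.00 without wild-type saline replicate 3 (-0.00 to 0.21). Tef from saline to DEN in the labelled knockout was 0.10 with medians centred, 0.03 with array weights, 0.26 without DEN replicate 2 and 0.06 without saline replicate 3 (-0.18 to 0.26). Nfil3 between genotypes at 4 weeks was 0.02, 0.03 and 0.01 without wild-type replicate 1, labelled knockout replicate 1 and both Gapdh arrays (-0.06 to 0.03). Bhlhe40 between genotypes with saline was -0.02 with medians centred and -0.08 without wild-type saline replicate 2 (-0.08 to 0.35), and from saline to DEN in the labelled knockout -0.14 without DEN replicate 1 (-0.14 to 0.14). Signals near the floor limit Bhlhe41, the weaker Tef probe sets and the core clock gene Npas2 with DEN.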
